A study of Rattus norvegicus with 8 samples.

Results

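The genes described here are 7 enzymes that act on steroids after pregnenolone has been made, or that supply such enzymes with electrons: Hsd3b1, Hsd17b1, Cyp19a1, Srd5a1, Por, Hsd11b1 and Hsd11b2. They were chosen by name out of 26214 gene names on a rat expression array; the rule uses no measured value, but the set was proposed with earlier results of these data known. Of the 7 genes, 6 were found by the gene name in the array files. Cyp19a1 was found through the RefSeq accession of its probe, which the files name by a GenBank entry. Together they have 8 probes, of which 7 were well above background on all 8 arrays and were tested.

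Ovary RNA of immature female rats was compared between 4 arrays labelled PMSG and 4 arrays labelled control. PMSG, pregnant mare serum gonadotropin, is a hormone preparation that acts mainly like follicle-stimulating hormone, with some luteinising activity. The PMSG rats received 50 IU under the skin at 26 days of age, carried in 0.2 ml of a phosphate buffer with albumin, and the control rats received 0.2 ml of that buffer alone. Both groups were killed for collection of the ovaries after 48 h, when 28 days old. The labels used here give no strain and do not say whether each array is 1 animal or a pool, so p-values measure only the spread between these arrays. Groups were read from the sample titles, which also set every direction. Lhcgr, the luteinising hormone receptor (log2 difference -1.93), and Star, the carrier of cholesterol into mitochondria (-2.75), are generally known to rise with gonadotropin treatment and were lower in the arrays labelled PMSG. Cyp11a1 also ran against the direction generally known. Hsd11b1 was lower too, against the direction known for luteinising hormone as a follicle nears ovulation. Hsd11b2 was lower as well (-1.58), which is the direction known for that hormone. Both directions are known for that hormone and stage, while PMSG acts mainly like follicle-stimulating hormone. Whether the titles are right was not tested, and exchanged titles would turn every sign given here. The groups are therefore called by their labels throughout.

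Pregnenolone is the first steroid made from cholesterol. Enzymes of the 3-beta-hydroxysteroid dehydrogenase family turn it into progesterone, Cyp17a1 turns progestins into androgens, and in granulosa cells Cyp19a1 (aromatase) and Hsd17b1 turn androgens into estradiol. Por is the membrane protein that passes electrons from NADPH to Cyp17a1, Cyp19a1 and the other microsomal P450 enzymes. Srd5a1 reduces progesterone and testosterone to their 5-alpha forms. The enzymes Hsd11b1 and Hsd11b2 act on glucocorticoids rather than sex steroids: Hsd11b1 regenerates active corticosterone inside the cell, and Hsd11b2 inactivates it. Luteinising hormone is known to raise Hsd11b1 and lower Hsd11b2 in granulosa cells as a follicle nears ovulation.

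Each value rests on a DNA probe of 60 bases, and the probes that carry the findings are shown here 5′ to 3′ as the array files give them, with the rat build rn4. The probe of Hsd11b1, the gene with the largest difference of the 7, starts at base 1340 of its transcript and maps to chr13:109063624-109063683, minus strand. Its bases 19 to 48 are shown, with AATAAA, the letters of the common polyadenylation signal, in capitals.
Hsd11b1, bases 19 to 48: aaatgtaattgtAATAAAtgtcacaaacca
The Por probe starts at base 1832 and maps to chr12:22079298-22079446, minus strand, a span of 149 bases that is longer than the probe.
Por: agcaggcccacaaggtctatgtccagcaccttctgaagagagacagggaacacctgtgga
Srd5a1 has 2 probes, the first at base 519 (chr17:3854451-3854510, plus strand) and the second at base 2093 (chr17:3878645-3878704, plus strand), shown because both were measured and they did not give the same call.
Srd5a1, base 519: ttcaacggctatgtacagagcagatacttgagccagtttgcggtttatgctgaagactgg
Srd5a1, base 2093, first 30 bases: tctggttcgcagaatgtctagatttgaccc
The probe of Cyp19a1, at base 2077, has no genome position in the files and is shown because it gave no signal above background.
Cyp19a1, first 30 bases: catattttcaatacaccttttttgcaatgc
The forward letters AATAAA were found in 2547 of all 30367 probes (8.39%) and their reverse complement in 870 (2.86%). Among the 8 probes of the enzymes, 1 holds the forward letters (Hsd11b1) and 0 hold the reverse complement. A match of letters is a description and not evidence of a used site.

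Values are log2 processed signal minus the array's 75th percentile, so 0 is the 75th percentile of an array's probes. Differences are arrays labelled PMSG minus arrays labelled control on that log2 scale, and adjusted p-values come from limma with Benjamini-Hochberg adjustment over 25303 tested probes. Of the 7 tested probes of the enzymes, 4 passed an adjusted p of 0.05, beside 34.2% of all tested probes. The 3 lower ones measure Hsd11b1, Hsd11b2 and Por, beside 16.6% of all probes that were lower. The higher one is the base 519 probe of Srd5a1, beside 17.6% of all probes that were higher (4452 probes, and 6982 without PMSG array 4). In 5 of the 7 probes the groups did not overlap, beside 36.6% of all tested probes. The median difference of all tested probes was 0.11. Because the ovary was measured as a whole, fewer cells of a type and less RNA per cell cannot be told apart.

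**Figure D1:**
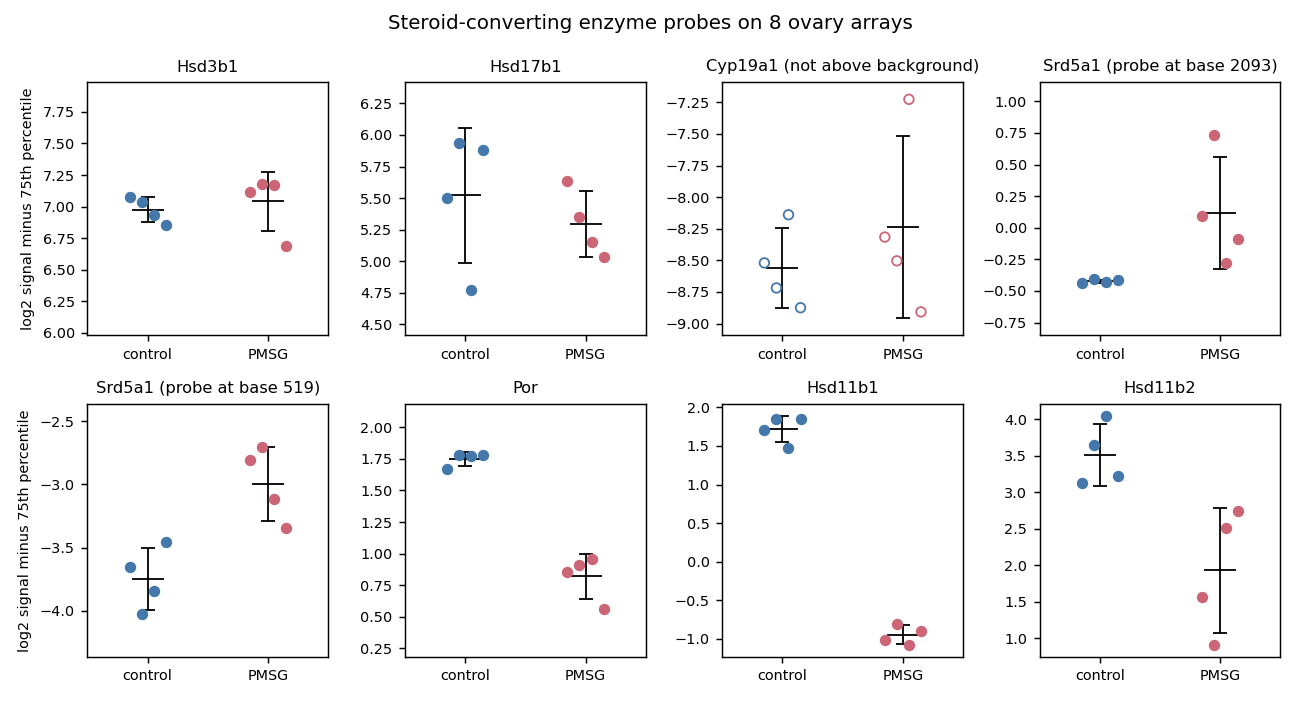
Each panel plots 1 probe of the steroid-converting enzymes, with the log2 signal minus the array's 75th percentile on the vertical axis and the arrays labelled control and PMSG along the horizontal axis; points are arrays, and horizontal lines with bars are means and SD (n = 4), and the vertical scale differs between panels. Hsd11b1 fell from 1.72 to -0.95 and Por from 1.75 to 0.82 with no overlap, Hsd3b1 and Hsd17b1 overlapped, and the Cyp19a1 probe was not above background on any array.

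The glucocorticoid pair gave the largest differences. Hsd11b1 read 1.71, 1.85, 1.48 and 1.84 on the control arrays and -1.01, -0.80, -1.08 and -0.89 on the PMSG arrays. Every PMSG array lay far below every control array, and the spread within each group was small. Group means were 1.72 ± 0.17 and -0.95 ± 0.12 (SD, n = 4). Hsd11b1 thus fell by 2.67 on the log2 scale (SE 0.12, 95% interval of the difference -2.94 to -2.39) and was 6.35-fold lower, with a limma adjusted p of 1.69e-05. Of all tested probes, 4.60% passed the threshold and were at least 2-fold lower. Within rows 1 and 2 of the slide the difference was -2.79 and -2.55.

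Hsd11b2 read 3.12, 3.64, 4.05 and 3.22 on the control arrays and 1.57, 0.90, 2.51 and 2.74 on the PMSG arrays (chr19:35341413-35341472, plus strand, rn4). The PMSG arrays were all lower, but they spread over more than 1 log2 unit, with array 2 lowest and arrays 3 and 4 closest to the controls. The group means of 3.51 ± 0.42 and 1.93 ± 0.85 (SD, n = 4) differed by -1.58 (SE 0.42, 95% interval -2.53 to -0.62), 2.98-fold lower, with a limma adjusted p of 0.0203. This call was lost when control array 2 (adjusted p = 0.0525), control array 3 (0.0535) or PMSG array 1 (0.0546) was left out, and with an equal-variance test per probe in place of the moderated one (0.0502). Over all alternatives the adjusted p ran from 0.00531 to 0.0546, and the difference stayed between -1.85 and -1.23.

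Both enzymes of the pair, which work in opposite directions on corticosterone, were thus lower in the arrays labelled PMSG. Within arrays, the change of Hsd11b1 minus the change of Hsd11b2 was -1.09 (SE 0.54), within the spread between arrays (p = 0.114 by an exact permutation test, two-sided). This comparison was added after the values had been seen. H6pd, which makes the NADPH that Hsd11b1 uses in the endoplasmic reticulum, fell by 1.04 on its brightest probe (SE 0.12, adjusted p = 5.86e-04, limma). Its other probe gave -0.069 (adjusted p = 0.777), so the probes of H6pd disagree.

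Of 10 corticosteroid receptors and glucocorticoid-responsive genes tested, 3 rose, 4 fell and 3 did not pass, with a median difference of 0.047 beside 0.11 over all probes. Called genes were 70% of this list, beside 34.2% of all probes (17.6% higher and 16.6% lower). Mt2A, a metal-binding protein induced by glucocorticoids, fell by 2.26, and its other probe fell by 2.42. Nr3c2, the mineralocorticoid receptor, rose by 2.05 (SE 0.15, adjusted p = 8.89e-05, limma), from control values of -3.93 to -3.52 to PMSG values of -1.99 to -1.46. Its other probe gave 0.59 (adjusted p = 0.394) and was above background on 1 control and 3 PMSG arrays. Dusp1, a phosphatase that turns off MAP kinases, fell by 1.86, and by 1.04 with normexp background correction.

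The other genes of this list that passed were named after their values were seen. Fkbp5, a chaperone partner of the glucocorticoid receptor and among its best known targets, fell by 1.75, and Sgk1, a kinase induced by corticosteroids, fell by 0.98. Tsc22d3, a leucine zipper protein also known as a glucocorticoid target, rose by 0.90. Nr3c1, the glucocorticoid receptor, rose by 0.82 (adjusted p = 0.00903, limma) on its brightest probe and gave -0.026 (adjusted p = 0.903) on the other. Genes known to be induced by glucocorticoids were thus found in both directions, and the genes that did not pass ran from -0.28 (Zbtb16) to 0.69 (Per1).

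**Figure D2:**
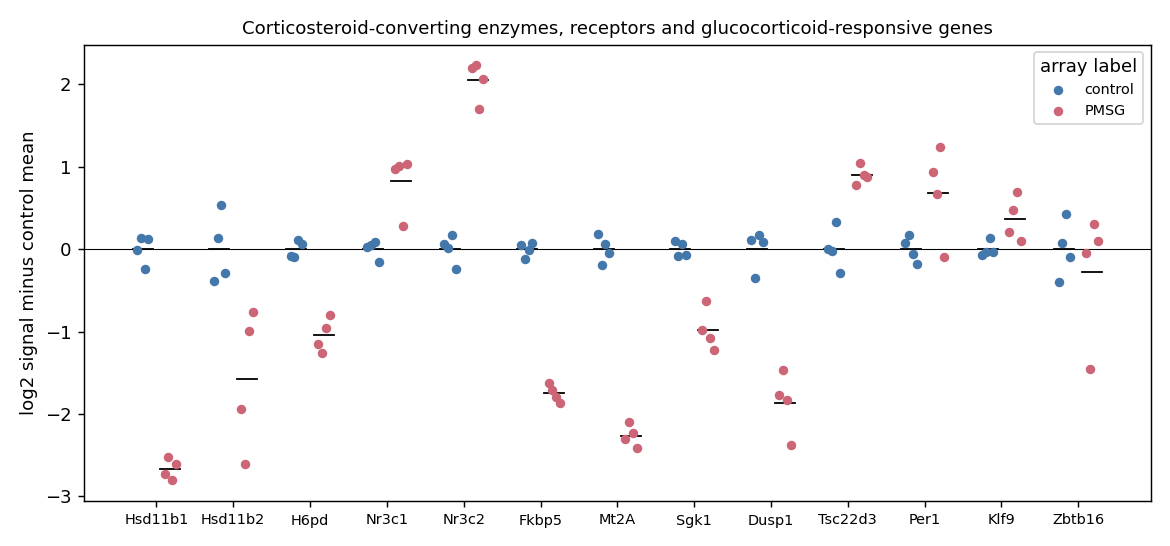
Log2 signal minus the gene's mean over the control arrays (vertical axis) for Hsd11b1, Hsd11b2, H6pd, the corticosteroid receptors and glucocorticoid-responsive genes (horizontal axis), each by its brightest probe; points are arrays, coloured by label, and short lines are means (n = 4). Hsd11b1, Hsd11b2 and Fkbp5 lie lower in all 4 PMSG arrays, and Nr3c2 lies higher in all 4.

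Por, the electron donor of the microsomal P450 enzymes, was lower in every array labelled PMSG. It read 1.67, 1.78, 1.77 and 1.78 on the control arrays and 0.86, 0.91, 0.96 and 0.56 on the PMSG arrays. The control arrays lay close together, and PMSG array 4 was the lowest. With group means of 1.75 ± 0.055 and 0.82 ± 0.18 (SD, n = 4), Por fell by 0.93 (SE 0.11, 95% interval of the difference -1.18 to -0.67), which is 1.90-fold lower, with a limma adjusted p of 5.79e-04. Within slide rows 1 and 2 the difference was -0.85 and -1.01.

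Of 9 other electron donors and NADPH-supplying genes, 6 fell, 0 rose and 3 did not pass, with a median of -0.79 beside 0.11 over all probes. These 6 are 66.7% of the list, beside 34.2% of all probes called and 16.6% lower. Fdx1, the ferredoxin that feeds the mitochondrial P450 enzymes, fell by 1.19 (SE 0.25, adjusted p = 0.00713, limma). Besides H6pd, Cyb5r1, a cytochrome b5 reductase, fell by 0.99 on its brightest probe and gave 0.11 (adjusted p = 0.464) on the other. The other members of this list that fell, named after their values were seen, are Cyb5b (-0.89), Fdxr, the reductase of Fdx1 (-0.79), and Pgrmc1, a heme-binding partner of P450 enzymes (-0.77). The other probes of Pgrmc1 gave -1.14 and -0.047. Cyb5a, the cytochrome b5 that assists the lyase step of Cyp17a1, differed by -0.28 and did not pass (adjusted p = 0.0871).

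Among the enzymes that draw electrons from Por, calls lay in both directions, as they did over all probes. Of 11 P450 enzymes and oxygenases tested, 2 rose, 3 fell and 6 did not pass, with a median of 0.036 (45.5% called, beside 34.2% of all probes). Cyp4f1, a fatty acid hydroxylase, rose by 3.19 (SE 0.25, adjusted p = 1.11e-04, limma). Cyp51 and Sqle, both enzymes of cholesterol synthesis, fell by 2.58 and 1.85. Cyp17a1, the androgen-forming enzyme of theca cells, ran from 4.88 to 5.25 on the control arrays and read 5.20, 5.17, 4.79 and 4.14 on the PMSG arrays. Its groups overlapped, and the difference of -0.22 (SE 0.23, adjusted p = 0.483) was 0.0093 (adjusted p = 0.961) without PMSG array 4. At the step that makes pregnenolone, Cyp11a1, which cuts the cholesterol side chain, fell by 3.36 (SE 0.31, adjusted p = 2.32e-04, limma).

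Hsd3b1, which makes progesterone from pregnenolone, did not pass the threshold. It read 7.07, 7.04, 6.93 and 6.85 on the control arrays and 7.12, 7.18, 7.17 and 6.69 on the PMSG arrays (chr2:193500935-193500994, minus strand, rn4; probe at base 1535). PMSG arrays 1 to 3 were the highest of all 8, and PMSG array 4 was the lowest. The means were 6.97 ± 0.10 and 7.04 ± 0.23 (SD, n = 4), with a difference of 0.066 (SE 0.13, 95% interval -0.24 to 0.37; limma adjusted p = 0.719). This direction is not settled: it was 0.23 in row 1 of the slide and -0.099 in row 2, and -0.14 (adjusted p = 0.205) after quantile normalization. Its signals of 110906 to 148863 were not flagged as saturated on any array. Whether signals this high were still proportional to RNA was not tested. The interval still holds differences of up to 0.37, and the test does not show that the level was equal.

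The other tested 3-beta-hydroxysteroid dehydrogenases were lower in the arrays labelled PMSG (100% called, beside 34.2% of all probes called and 16.6% lower). All 5 tested genes of that list passed, with a median of -1.65: Nsdhl, which acts in cholesterol synthesis (-1.90), the gene named Hsd3b6 in the files and Hsd3b2 in RefSeq (-1.69), Hsd3b5 (-1.65), the gene named Hsd3b in the files and Hsd3b3 in RefSeq (-1.46), and Hsd3b7, an enzyme of bile acid synthesis (-0.61). Which transcripts the Hsd3b, Hsd3b5 and Hsd3b6 probes measure is uncertain, as described below, so they may not count as separate genes. Another Hsd3b5 probe was above background on 0 control and 2 PMSG arrays and was not tested. The tested Hsd3b5 probe has 1 spot per array. It read 3.78, 3.52, 3.49 and 3.58 on the control arrays and 2.14, 1.84, 2.35 and 1.45 on the PMSG arrays, with no overlap. Hsd3b6 ran from -2.83 to -2.20 on the control arrays and from -4.49 to -4.01 on the PMSG arrays. For Hsd3b7 the adjusted p of 0.0253 rose to 0.0549, 0.0644, 0.0556 and 0.0639 when control array 1, 3 or 4 or PMSG array 1 was left out. With normexp background correction the differences were smaller but still passed: -0.69 for Hsd3b, -0.9995 for Hsd3b6 and -0.39 for Hsd3b7.

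The change of each relative was also set against that of Hsd3b1 within each array. These comparisons were added after the values above had been seen and restate them, so they are a description with no test. The change of Hsd3b5 minus that of Hsd3b1 was -1.71 (SE 0.13), and it was -1.52 (SE 0.19) for Hsd3b, -1.76 (SE 0.15) for Hsd3b6 and -0.67 (SE 0.14) for Hsd3b7.

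Hsd3b1, Hsd3b, Hsd3b5 and Hsd3b6 are members of a family of near-identical genes on rat chromosome 2, so which transcript each probe measures is uncertain. The probes of Hsd3b1 and Hsd3b overlap in matching sequence. Bases 27 to 56 of the Hsd3b1 probe and bases 1 to 30 of the Hsd3b probe (chr2:193387399-193387458, minus strand, rn4) share 26 of 30 letters (86.7%), shown in capitals.
Hsd3b1, bases 27 to 56: CCTGCTTTGGTTAtAtCTCAtTGaTTTATA
Hsd3b, bases 1 to 30: CCTGCTTTGGTTAaAaCTCAcTGcTTTATA
The longest run of letters shared with the Hsd3b1 probe was 13 for Hsd3b, 7 for Hsd3b6, 6 for Hsd3b7 and 5 for the Hsd3b5 probe described above. The Hsd3b probe holds the letters AATAAA, though not within the bases shown above. Like the Hsd11b1 probe, the Hsd3b6 probe (chr2:193337343-193337402, minus strand, rn4) holds them too.
Hsd3b6, bases 29 to 58: aatagaaggaacAATAAAtatttgtcaaca
Hsd3b5 has 2 probes, and only the one at base 1060 (chr2:193250794-193250853, minus strand, rn4) was tested. The other, at base 1845 (chr2:193249991-193250050, minus strand, rn4), was above background on 0 control and 2 PMSG arrays.
Hsd3b5, base 1060: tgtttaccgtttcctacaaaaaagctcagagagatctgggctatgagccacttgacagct
Hsd3b5, base 1845, first 30 bases: cccctgtcataccaagaaaccttattttcg

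**Figure D3:**
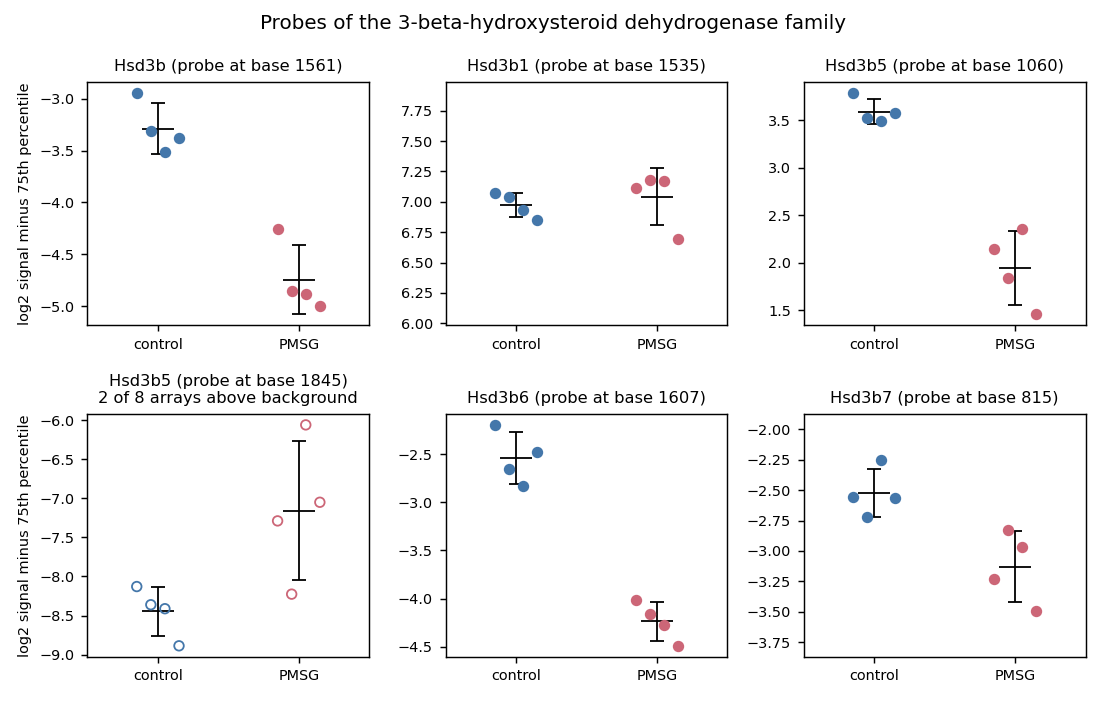
Log2 signal minus the array's 75th percentile (vertical axis) of the 3-beta-hydroxysteroid dehydrogenase probes on arrays labelled control and PMSG; points are arrays, and lines with bars are means and SD (n = 4), and the vertical scale differs between panels. Hsd3b1 overlaps between the groups near 7, and Hsd3b, Hsd3b5 (base 1060), Hsd3b6 and Hsd3b7 lie lower in all 4 PMSG arrays.

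Hsd17b1, which makes estradiol from estrone in granulosa cells, overlapped between the groups. It read 5.50, 5.93, 4.78 and 5.88 on the control arrays and 5.63, 5.35, 5.15 and 5.04 on the PMSG arrays (chr10:90096018-90096077, plus strand, rn4; probe at base 988). Control array 3 was the lowest of all 8, and the other control arrays spread over less than 0.5 log2 unit. The means were 5.52 ± 0.53 and 5.29 ± 0.26 (SD, n = 4), with a difference of -0.23 (SE 0.27, 95% interval -0.84 to 0.38; limma adjusted p = 0.519). The difference was -0.65 in row 1 of the slide and 0.19 in row 2, so its direction did not hold within rows. Row 2 holds control array 3. Without that array the difference was -0.48 (limma adjusted p = 0.0926), and without control array 2 it was -0.092 (0.823).

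Of 9 other 17-beta-hydroxysteroid dehydrogenases tested, 2 fell, 0 rose and 7 did not pass, with a median of -0.051. These 2 are 22.2% of the list, beside 34.2% of all probes called and 16.6% lower. Hsd17b7, which acts on estrone and in cholesterol synthesis, fell by 3.77 (SE 0.17, adjusted p = 1.69e-05, limma), from control values of 2.13 to 2.76 to PMSG values of -1.61 to -1.20. Hsd17b12, an enzyme of fatty acid elongation, fell by 0.78. The genes that did not pass ran from -0.32 (Hsd17b13) to 0.80 (Hsd17b2, which inactivates estradiol). Hsd17b6 was above background on 0 arrays and Hsd17b3 on 1 control and 2 PMSG arrays.

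Cyp19a1, the aromatase of granulosa cells, cannot be compared in these data. On 0 of 8 arrays did its probe pass as well above background, at processed signals of 2.25 to 5.14. The log2 values were -8.52, -8.72, -8.14 and -8.88 on the control arrays and -8.32, -8.50, -7.23 and -8.91 on the PMSG arrays, and the groups overlapped. Follicle-stimulating hormone is generally known to induce this gene, and the values say only that this probe did not detect it. Of 4 tested genes that inactivate estrogens or form catechol estrogens, 1 fell (Nqo1, a quinone reductase, -0.67, or -0.37 with normexp background correction) and 3 did not pass. That is 25% called, beside 34.2% of all probes called and 16.6% lower.

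Srd5a1 was the only enzyme of the 7 with a higher call, and it rested on 1 of its 2 probes. The base 519 probe, which has 1 spot per array, read -3.65, -4.03, -3.84 and -3.46 on the control arrays and -2.81, -2.70, -3.12 and -3.35 on the PMSG arrays. All PMSG arrays were above all control arrays, PMSG array 4 by the smallest margin. With group means of -3.75 ± 0.24 and -3.00 ± 0.29 (SD, n = 4), this probe rose by 0.75 (SE 0.18, 95% interval 0.33 to 1.17), which is 1.68-fold higher, with a limma adjusted p of 0.0139. It rose by 0.51 (limma adjusted p = 0.0100) with normexp background correction and by 0.57 (0.0438) with quantile normalization. With array weights it rose by 0.87 (0.00544).

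The brighter Srd5a1 probe, at base 2093, read -0.44, -0.41, -0.43 and -0.42 on the control arrays and 0.091, 0.74, -0.28 and -0.091 on the PMSG arrays. The control arrays were nearly identical, and the PMSG arrays spread widely above them, with array 2 highest on this probe and on the other. The means were -0.42 ± 0.013 and 0.11 ± 0.44 (SD, n = 4), with a difference of 0.54 (SE 0.20, 95% interval 0.067 to 1.01) and a limma adjusted p of 0.0753. Without PMSG array 2 it was 0.33 (adjusted p = 0.0692). It passed without PMSG array 3 (0.67, adjusted p = 0.0383), with array weights (0.59, adjusted p = 0.0281) and as the mean of the gene's probes (0.64, adjusted p = 0.0230). Over all alternatives its adjusted p ran from 0.0230 to 0.138. PMSG array 2, the highest for Srd5a1, was the lowest for Hsd11b2.

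None of the 3 other 5-alpha reductases and relatives tested passed: Tecr, an enzyme of fatty acid elongation, differed by -0.37 (limma adjusted p = 0.0544), Srd5a3, an enzyme of dolichol synthesis, by -0.37 (0.0525) and Srd5a2, the other steroid 5-alpha reductase, by -0.16 (0.712). Akr1d1, the 5-beta reductase, was above background on 0 control arrays and 1 PMSG array and was not tested. Of 5 tested genes of the adrenal cortex, 2 fell and 0 rose (40% called, beside 34.2% of all probes called and 16.6% lower). They are Mrap, the accessory protein of the ACTH receptor (-3.42), and Cyp11b1, which makes corticosterone (-1.14). The Cyp11b1 difference was -0.32 (adjusted p = 0.0891) with normexp background correction.

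**Figure D4:**
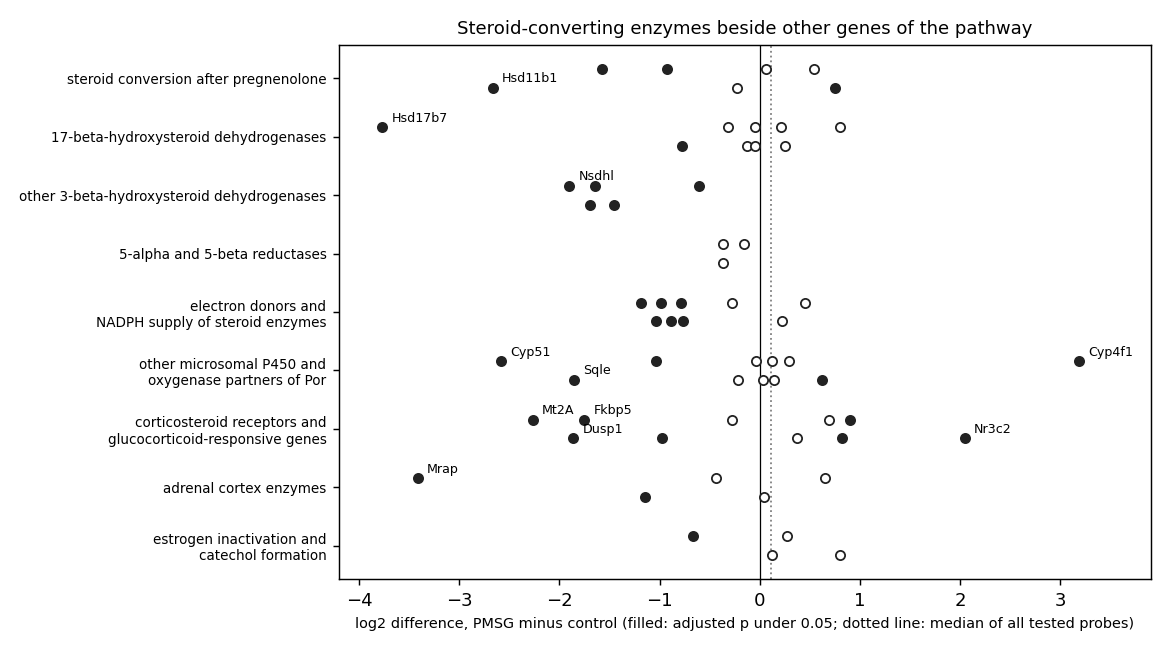
Each point is 1 gene (for Srd5a1, 1 of its 2 probes), grouped by list on the vertical axis, with the log2 difference between arrays labelled PMSG and control on the horizontal axis; filled points passed a limma adjusted p of 0.05, and the dotted line is the median of all tested probes, 0.11. All 5 other 3-beta-hydroxysteroid dehydrogenases and 6 of 9 electron donors lie on the lower side with filled points, while the P450 partners of Por run from -2.58 (Cyp51) to 3.19 (Cyp4f1).

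Across the 8 lists, 54 of 61 genes listed were tested and 28 passed, beside 34.2% of all probes called. The marker counts that follow stand beside 17.6% of all probes that were higher and 16.6% that were lower. Several cell type marker lists moved with the groups. All 7 luteal cell markers fell, Cyp11a1 among them, and the mean level of the list ran from 1.48 to 1.74 on the control arrays and from -2.50 to -1.47 on the PMSG arrays. The luteal markers Ptgfr and Akr1c18 were above background on 4 control arrays each and on 0 and 1 PMSG arrays. Both met the filter of 4 arrays through the control arrays alone, which favours a lower call. Their values also enter the mean level of that list. Of 9 granulosa cell markers, 4 fell and 1 rose, with a mean level of 1.87 to 2.58 on the control and 1.65 to 1.96 on the PMSG arrays. The 1 that rose is Amh (3.03), and the 4 that did not pass ran from -0.39 (Inha) to 0.34 (Fshr). These genes were named after their values were seen. Hsd17b7 is in this list too and has its lowest difference (-3.77). Whether it marks granulosa cells in these samples was not tested. Of 5 theca cell markers 3 rose (-0.41 to -0.20 and 0.30 to 0.60).

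All 8 oocyte markers rose, with a mean level of -2.02 to -1.22 on the control and -0.22 to 0.72 on the PMSG arrays. Of 7 stroma and smooth muscle markers 4 rose (3.25 to 3.60 and 3.52 to 4.05), of 6 leukocyte markers 4 rose (-0.26 to 0.11 and 0.29 to 0.41), and of 7 oviduct and surface epithelium markers 4 rose (-1.09 to -0.52 and 0.11 to 0.67). Of 6 endothelium markers 4 fell (-0.92 to -0.66 and -1.49 to -1.10). Of 5 erythroid markers 1 fell (2.53 to 3.77 and 1.98 to 2.60), and of 5 adipocyte markers 0 passed (-1.89 to 1.38 and -0.20 to 1.32). The part of these cell types in the differences of Hsd11b1, Hsd11b2, Por, Srd5a1 and the 3-beta-hydroxysteroid dehydrogenases was not tested.

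The genes whose values ran most like each enzyme over the 8 arrays were found by Pearson correlation over 14829 genes. The 8 arrays share the difference between groups, so these values are a description with no test. Hsd11b1 was followed most closely by Etf1 (0.998), Mesdc1 (0.997) and Ereg (0.996), and 882 genes (5.95%) were above 0.95. Por was followed by Vps26a (0.997), Col4a2 (0.996) and Kpnb1 (0.995), with 594 genes (4.01%) above 0.95. Hsd11b2 was followed by Prmt7 (0.992), Dpep2 (0.987) and Dgkd (0.983), with 27 genes above 0.95. Fewer genes ran like the 3 enzymes whose brightest probe did not pass: 13 for Hsd3b1 (Ceacam9, 0.965; Zfp488, 0.962; C2cd4b, 0.962), 8 for Srd5a1 (Pthlh, 0.979; Taf11, 0.974; Id1, 0.964) and 3 for Hsd17b1 (Gabpb1, 0.979; Arsb, 0.964; Gpr56, 0.959).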

How the data were processed

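RNA (500 ng a sample) was amplified from an oligo-dT primer and labelled with Cy3, per the labels' protocols. The deposited spot intensity values come from Agilent Feature Extraction 11.5.1.1 and probe positions are on rn4, per the file headers. The authors also deposited a log2 table, which by comparison with the scanner files holds log2 signal minus each array's 75th percentile; it was used as an alternative. All arrays came from 1 slide and 1 scan day. The 75th percentile of the signal was 769 to 1103, and 80.8% to 84.6% of probes were above background.

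Control and outlier spots were left out, and the spots of a probe were averaged, leaving 30350 of 30367 probes. The array's own 75th percentile was then subtracted from its log2 processed signals. A probe was tested where at least 0.5 of its usable spots were well above background on at least 4 of 8 arrays, in 25303 probes. The test was limma's moderated one (lmFit, then eBayes; limma 3.58.1, R 4.3.3) without covariates, with p-values adjusted by Benjamini-Hochberg and a threshold of 0.05. Precision is limited by the 4 arrays in each group. The test was checked on simulated data.

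Each gene is given by its brightest probe, and every probe of the 7 enzymes is given. A RefSeq table of the GRCr8 assembly was used for names only: 18515 probes matched a symbol. Sult1e1 and Ovgp1 were not analysed here. Named genes are the 7 enzymes, up to 3 genes per list with the largest difference among those that passed, the 3 genes most like each enzyme, Cyp11a1 and Cyp17a1. Named beyond this rule, after their values were seen, were Lhcgr, Star, Ptgfr, Akr1c18, Cyb5a, Zbtb16, Per1, Hsd17b2, Hsd17b3, Hsd17b6, Hsd17b13, Tecr, Srd5a2, Srd5a3, Akr1d1, Hsd3b, Hsd3b7 and those marked in the text. The enzymes and lists were chosen with earlier results of these data known, and the comparisons of changes within arrays were added after values were seen. Alternatives were quantile normalization, median centring, normexp with an offset of 50, other filters, array weights, an equal-variance test, treat, the deposited table, slide row and replicate number as blocks, and leaving out each array.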

Additional observations from a re-analysis of the deposited data

Results flagged for a closer look

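In 70 groups of 4 arrays, 1 array stood apart in 7 (its gap to the nearest other array was past Dixon's 95% critical value as a share of the group's range), where chance gives about 1 in 20, or 3.50. Hsd3b1 read 6.69 on PMSG array 4, against 7.12 to 7.18 on the other PMSG arrays. Por read 1.67 on control array 1, against 1.77 to 1.78 on the other control arrays. On control array 2, Hsd17b7 read 2.76 against 2.13 to 2.18, and Dusp1 read -2.94 against -2.50 to -2.42. Among genes of electron supply, Fdxr read 4.72 on PMSG array 4 against 5.18 to 5.22, and Pgrmc1 read 1.47 on PMSG array 3 against 1.88 to 1.96. Nr3c1 read -1.67 on PMSG array 3 against -0.97 to -0.92.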

How the results depend on the processing

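Of the 7 enzymes, Hsd11b1 (-2.75 to -2.54) and Por (-0.97 to -0.84) were called under the 18 alternatives that kept the test against no difference, and Hsd17b1 (-0.48 to -0.092) under none. Hsd3b1 turned to -0.14 under quantile normalization, and Cyp17a1 to 0.0093 without PMSG array 4 (-0.34 to 0.0093 over single arrays left out); neither was called. Srd5a1 (base 2093) was called with array weights (0.59) and as the mean of its probes (0.64), and ran from 0.33 to 0.67 when single arrays were left out. Hsd11b2 kept its difference of -1.58 but lost its call with the equal-variance test, and ran from -1.85 to -1.23 when single arrays were left out. Against a 2-fold difference (limma treat), 1 probe of the enzymes passed, so not both of these; over the other alternatives 3 to 5 did. All differing probes ran from 6552 to 11382, the highest without PMSG array 4, and called list genes from 26 to 35. With the replicate number as a block, 7346 probes and 3 probes of the enzymes passed, and the Srd5a1 base 519 probe no longer did (0.75, adjusted p = 0.0517). Arrays that share a number deviated with correlations of only -0.019 to 0.18, so the number was not taken as a pairing. The 6 differences of changes within arrays kept their direction when single arrays were left out. The causes were not tested. Probes near background, such as that of Cyp19a1, limit what can be compared.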
